A study of Mus musculus with 12 samples.

Results

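The VEGF family was followed through 9 genes that were listed by name and found by that name in all 12 count tables. These were 4 ligand genes (*Vegfa*, *Vegfb*, *Vegfc*, and *Pgf*), 3 receptor tyrosine kinase genes (*Kdr*, *Flt1*, and *Flt4*), and 2 co-receptor genes (*Nrp1* and *Nrp2*), of 38127 genes counted. RNA-seq was performed on cells sorted from mouse fetal liver (FL), and each of 4 groups had 3 libraries, numbered as replicates 1, 2, and 3. All 4 groups came from strain C57BL/6, the labels name no mutation and no treatment, and all sorted cells lacked Ter119 and CD45, the surface markers of maturing erythrocytes and of most blood cells. At E14.5, the P2 cells (Kit+CD24+ cells without CD54 or CD31) are erythroid progenitors in the study, the CD31+ cells carried both CD54 and CD31 and represent endothelium, and the CD54+CD31- cells contain hepatoblasts. At E18.5, only CD54+CD31- cells were sequenced. Each group is defined by its surface antigens alone, and the study gives independent litters for its sorted E14.5 samples. The question followed here was which of these populations carried the RNA of VEGF ligands and which that of their receptors.

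VEGF ligands are secreted dimers that direct the growth and permeability of blood and lymphatic vessels. VEGF-A, encoded by *Vegfa*, binds the receptor kinases VEGFR2 (*Kdr*) and VEGFR1 (*Flt1*), VEGF-B and placental growth factor (*Pgf*) bind VEGFR1, and VEGF-C binds VEGFR3 (*Flt4*) and VEGFR2. Neuropilins bind both VEGF ligands and class 3 semaphorins and act with the kinases as co-receptors. In liver, sinusoidal endothelial cells carry these receptors, and hepatocytes are a known source of VEGF-A.

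Levels are given as CPM, which are counts relative to library size as adjusted by edgeR's TMM method over the 12 libraries, and as mean ± SD over 3 libraries. Levels of different genes are compared only after division by exon length, as CPM per kilobase of exon (RPKM). Total counts ranged from 40714017 to 64368883 per library, and the 9 genes passed the low count filter in both fits. The labels were checked against marker lists. The 12 erythroid markers summed to between 2846 and 3050 CPM in P2 cells and 416 to 1068 CPM in the other E14.5 libraries, with *Alas2* listed at 0 in every library. Of 11 tested, 8 were called higher and 1 lower in P2 than in E14.5 CD54+CD31- cells. The means of *Slc4a1* (120 against 224 CPM), *Hbb-bs* (41.6 against 81.5), and *Hba-a1* (32.6 against 51.7) were lower in P2 cells. The 12 endothelial markers summed to between 6758 and 7494 CPM in CD31+ cells, against 40.5 to 331 in the other E14.5 libraries, and the 12 hepatoblast markers to between 72980 and 83724 CPM in E14.5 CD54+CD31- cells, against 709 to 973 in the other E14.5 libraries. Libraries of 2 groups stood apart. P2 replicate 2 had 331 CPM of endothelial markers, against 69.4 and 101 in the other P2 libraries. The E18.5 libraries, labelled as liver, held 2133 to 4652 CPM of 8 alveolar type 1 markers and 8993 to 19747 CPM of 8 alveolar type 2 markers of lung, against 26.7 to 30.4 and 179 to 192 in the E14.5 CD54+CD31- cells. E18.5 replicate 1 also had 6255 CPM of hepatoblast markers, against 40117 and 51873 in the other E18.5 libraries. The part of lung RNA in any difference between E18.5 and E14.5 was not tested. CD31+ cells also held 516 to 829 CPM of 8 megakaryocyte markers, against at most 136 in the other E14.5 libraries, and the part of those cells in the CD31+ values was not tested. Of 10 macrophage markers, only *Mrc1*, which sinusoidal endothelium is also known to carry, was called higher in CD31+ than in E14.5 CD54+CD31- cells (1416 against 27.8 CPM), and 7 were lower. In bulk libraries, fewer cells of a type and less RNA per cell cannot be told apart.

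All 9 genes differed among the 3 E14.5 populations (edgeR's quasi-likelihood test over 15461 genes, Benjamini-Hochberg adjusted, with 0.000257 for *Vegfb* as the highest adjusted p), in a comparison where 86.9% of the tested genes were called. The 3 receptor kinases and both neuropilins were highest in CD31+ cells, whereas the ligands shared no such order. At E14.5, *Vegfc* and *Pgf* were also highest in CD31+ cells, and *Vegfa* and *Vegfb* were highest in CD54+CD31- cells.

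Counted by comparison, 3 of the 9 genes were called higher in P2 than in E14.5 CD54+CD31- cells and 4 lower (background 70.0% of 15461 genes called, 33.8% higher and 36.1% lower). Against CD31+ cells, none was higher in P2 cells and 8 were lower (background 73.7% called, 34.3% higher and 39.4% lower). CD31+ cells had 7 genes higher and 2 lower than E14.5 CD54+CD31- cells (background 65.6% called, 31.7% higher and 34.0% lower). In CD54+CD31- cells, 7 were higher and 1 was lower at E18.5 than at E14.5 (background 69.4% of 15863 genes called, 35.9% higher and 33.5% lower). The members' median log2 fold changes were 0.08, -5.52, 4.96, and 2.92 in this order, against -0.01, -0.13, -0.03, and 0.03 over all tested genes. These comparisons share libraries and are not independent of each other. Without P2 replicate 2, and without E18.5 replicate 1, the members' counts in each direction were unchanged. With the authors' library factors in place of TMM, the split of all calls moved from 5229 higher and 5586 lower to 4008 and 6495 for P2 against E14.5 CD54+CD31- cells, and from 5310 and 6085 to 3831 and 7475 for P2 against CD31+ cells, while no member's call changed.

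**Figure D1:**
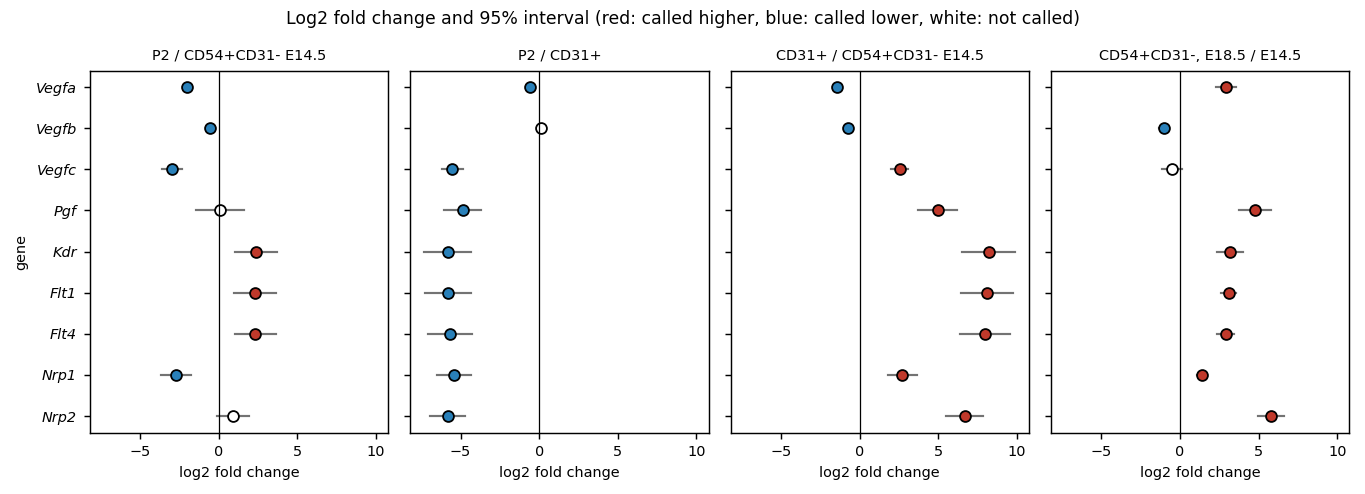
Log2 fold change of each of the 9 genes with its 95% interval (edgeR) in the 4 comparisons, the first group named relative to the second. The receptors lie near 8 for *Kdr*, *Flt1*, and *Flt4* in CD31+ over E14.5 CD54+CD31- cells and at -5.42 to -5.83 in P2 over CD31+ cells, and 4 of the 36 values were not called.

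*Vegfa* (ENSMUSG00000023951) lies on the minus strand at chr17:46016993-46032369 in GRCm38, and GENCODE vM21 lists 13 transcripts for it. Its level was 31.6, 29.0, and 32.4 CPM in P2 replicates 1, 2, and 3, 130, 111, and 131 CPM in E14.5 CD54+CD31- cells, and 41.1, 42.6, and 53.1 CPM in CD31+ cells. No library of one E14.5 population overlapped those of another, with CD54+CD31- cells above CD31+ cells and CD31+ cells above P2 cells. Relative to CD54+CD31- cells, *Vegfa* was 4.06-fold lower in P2 cells (log2 fold change -2.02, SE 0.12, adjusted p = 1.52e-07 in edgeR) and 2.73-fold lower in CD31+ cells (-1.45, SE 0.12, adjusted p = 1.95e-06). P2 cells were 1.48-fold lower than CD31+ cells (-0.57, SE 0.12, adjusted p = 0.00132).

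At E18.5, *Vegfa* reached 1145, 668, and 659 CPM, and every one of these libraries lay above every E14.5 library. In the separate edgeR fit of the 6 CD54+CD31- libraries, this was 7.58-fold higher than at E14.5 (log2 fold change 2.92, SE 0.27, adjusted p = 0.000127). Replicate 1 was 1.73 times the mean of replicates 2 and 3, and the same ratio had a median of 2.06 over the alveolar type 1 markers, 1.93 over the alveolar type 2 markers, and 0.104 over the hepatoblast markers. Per kilobase of exon, *Vegfa* ranked 67 of 16617 genes at E18.5, at 192 RPKM, and 1365 in E14.5 CD54+CD31- cells, at 28.9 RPKM. Without replicate 1, the log2 fold change was 2.59 (adjusted p = 1.66e-07). The part of lung RNA in the *Vegfa* level was not tested.

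The bases upstream of *Vegfa* are shown because the gene had the highest level of the 4 ligands at E18.5 and its level separated all 4 groups. In this and the other promoters below, the letters run 5′ to 3′ on the gene's strand, come from RefSeq with build GRCm38.p6, and lie outside annotated exons. Capitals here mark GGGCGG, the box bound by SP1 family factors, at chr17:46032378-46032627.
*Vegfa*: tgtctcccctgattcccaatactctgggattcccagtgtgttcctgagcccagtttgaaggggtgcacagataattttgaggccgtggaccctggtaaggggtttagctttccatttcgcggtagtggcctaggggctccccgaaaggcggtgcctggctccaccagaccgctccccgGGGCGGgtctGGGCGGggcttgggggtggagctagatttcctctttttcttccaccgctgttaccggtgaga
ACGTG, a form of the hypoxia response element core, was searched on both strands in the 300 bases around the start of all 9 genes. Other forms of the core, such as GCGTG, and bases outside that stretch were not searched. ACGTG was found in none of the windows of the 9 genes, while 20.9% of 21263 protein-coding windows of that length hold it. GGGCGG was present in the windows of all 9 genes and in 46.2% of those windows.

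*Vegfb* (ENSMUSG00000024962, minus strand of chr19:6982473-6987651) encodes a ligand of VEGFR1. Its level was 67.5, 74.0, and 63.1 CPM in P2 cells, 98.1, 99.9, and 105 CPM in E14.5 CD54+CD31- cells, 66.3, 67.7, and 51.7 CPM in CD31+ cells, and 45.9, 36.9, and 46.5 CPM at E18.5. The range was narrow beside that of the other members. CD54+CD31- cells at E14.5 lay above the other groups, E18.5 cells lay below them, and P2 and CD31+ cells overlapped. *Vegfb* was 1.50-fold lower in P2 cells than in E14.5 CD54+CD31- cells (log2 fold change -0.58, SE 0.11, adjusted p = 0.000847 in edgeR). CD31+ cells were 1.64-fold lower than E14.5 CD54+CD31- cells (-0.71, SE 0.11, adjusted p = 0.000256). Between P2 and CD31+ cells no difference was called (0.13, 95% interval -0.12 to 0.38, adjusted p = 0.321). *Vegfb* was 2.06-fold lower at E18.5 than at E14.5 in CD54+CD31- cells (-1.04, SE 0.12, adjusted p = 0.000277). It was the only one of the 9 genes that was called lower at E18.5. The part of lung RNA in this difference was not tested.

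*Vegfc* (ENSMUSG00000031520, plus strand of chr8:54077606-54187096) encodes the main ligand of VEGFR3 and is known for lymphatic growth. It was near the bottom of its range in P2 cells, with 1.01, 2.00, and 0.905 CPM. E14.5 CD54+CD31- cells had 10.1, 8.59, and 11.6 CPM, CD31+ cells had 71.1, 52.7, and 54.1 CPM, and E18.5 cells had 3.93, 7.19, and 7.87 CPM. None of the 4 groups overlapped. *Vegfc* was 5.83-fold higher in CD31+ cells than in E14.5 CD54+CD31- cells (log2 fold change 2.54, SE 0.24, adjusted p = 6.19e-06). P2 cells were 7.85-fold lower than E14.5 CD54+CD31- cells (-2.97, SE 0.27, adjusted p = 3.67e-06) and 45.7-fold lower than CD31+ cells (-5.52, SE 0.29, adjusted p = 1.01e-07). The difference with age was not called (-0.49, 95% interval -1.14 to 0.15, adjusted p = 0.142), although the E18.5 libraries all lay below the E14.5 libraries. E18.5 replicate 1 had 0.522 times the *Vegfc* mean of the other E18.5 libraries. The median of that ratio was 0.104 over the hepatoblast markers and 0.334 over the macrophage markers. It was 2.06 and 1.93 over the alveolar type 1 and type 2 markers, 1.07 over the stellate and mesenchymal markers, and 1.12 over the endothelial markers. Which cells carried *Vegfc* at E18.5, and the part of lung RNA in its level, were not tested.

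*Pgf* (ENSMUSG00000004791, minus strand of chr12:85166635-85177790) encodes placental growth factor and had the lowest level per kilobase of the 9 genes in all 4 groups. It had 3, 1, and 9 counts in P2 cells and 3, 2, and 4 counts in E14.5 CD54+CD31- cells, against 133, 194, and 139 counts in CD31+ cells and 183, 121, and 132 counts at E18.5. The P2 and E14.5 CD54+CD31- libraries overlapped, as did the CD31+ and E18.5 libraries, and a wide gap separated the pairs. The pooled counts gave a ratio of CD31+ to E14.5 CD54+CD31- cells of 31.9 (95% interval of counting error 16.6 to 70.1) and of E18.5 to E14.5 CD54+CD31- cells of 24.4 (12.7 to 53.6). In edgeR the corresponding log2 fold changes were 4.96 (SE 0.56, adjusted p = 2.31e-05) and 4.79 (SE 0.43, adjusted p = 0.000110). P2 cells were 29.3-fold lower than CD31+ cells (-4.87, SE 0.54, adjusted p = 1.43e-05), and 57.8-fold lower without P2 replicate 3. Between P2 and E14.5 CD54+CD31- cells, a *Pgf* difference was not detectable at this depth (0.08, 95% interval -1.47 to 1.63, adjusted p = 0.921).

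Per kilobase of exon, the ligand mixture differed by group. *Vegfb* made up 84.4% ± 1.37 (SD, n = 3) of the summed ligand level in P2 cells, 65.6% ± 2.09 in E14.5 CD54+CD31- cells, 51.8% ± 4.36 in CD31+ cells, and 12.6% ± 2.96 at E18.5. *Vegfa* made up 30.1% ± 1.76 in E14.5 CD54+CD31- cells and 85.8% ± 3.57 at E18.5. *Vegfc* accounted for 32.5% ± 3.60 in CD31+ cells and at most 4.71% in any library of the other groups. The summed ligand level was 47.3 to 53.7 RPKM in P2 cells, 91.7 to 101 in E14.5 CD54+CD31- cells, 67.5 to 80.8 in CD31+ cells, and 182 to 298 at E18.5, with no overlap between groups. How much of the E18.5 shares and sums came from lung RNA was not tested, and age and tissue content cannot be told apart here.

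**Figure D2:**
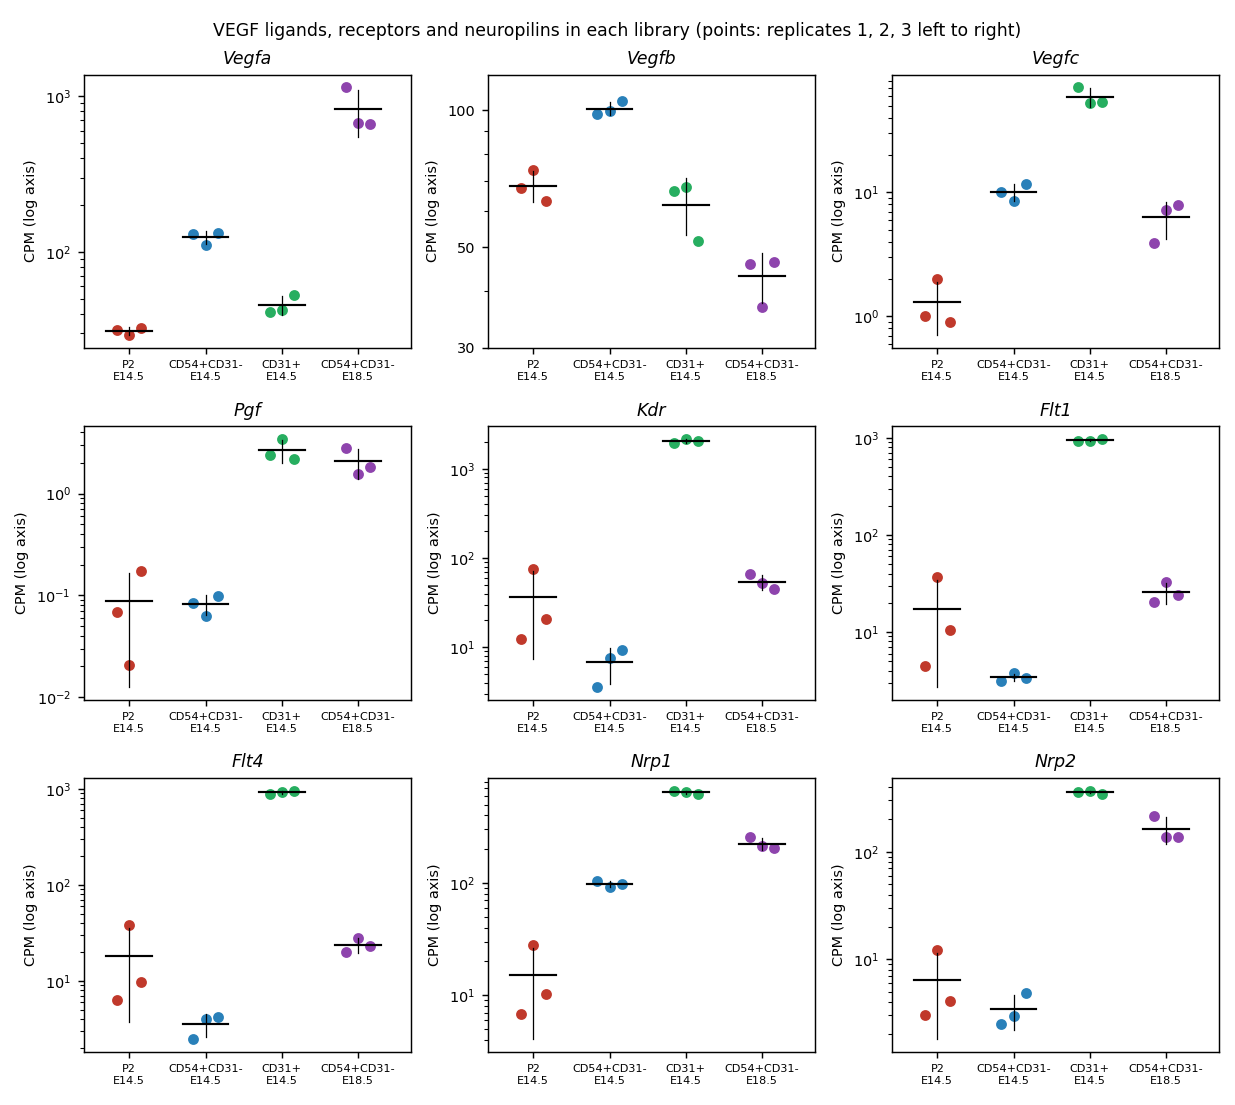
Level of each of the 9 VEGF genes (CPM, log axis, a separate scale in each panel) in the 3 libraries of each group, with the mean (horizontal line) and SD (vertical line, cut short where it would reach 0). The receptor kinases lay between 886 and 2170 CPM in CD31+ cells, with P2 replicate 2 above the other P2 libraries, whereas *Vegfa* was highest at E18.5. How much of the E18.5 levels came from lung RNA was not tested.

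The 3 receptor kinases shared one order of the 4 group means. Within the E18.5 libraries they parted: replicate 1 was highest for *Kdr* and lowest for *Flt1* and *Flt4*. *Kdr* (ENSMUSG00000062960, minus strand of chr5:75932827-75978458), which encodes the main signaling receptor of VEGF-A, had 1940, 2170, and 2043 CPM in CD31+ cells. P2 cells had 12.2, 75.9, and 20.9 CPM of *Kdr*, E14.5 CD54+CD31- cells had 3.57, 7.62, and 9.43 CPM, and E18.5 cells had 66.1, 52.0, and 45.2 CPM. CD31+ cells stood far above all others, E14.5 CD54+CD31- cells were lowest, and P2 replicate 2 lay above the E18.5 libraries. *Flt1* (ENSMUSG00000029648, minus strand of chr5:147561604-147726011) encodes VEGFR1, which also exists as a soluble decoy form that gene-level counts cannot separate. *Flt1* had 938, 931, and 977 CPM in CD31+ cells, 4.50, 36.8, and 10.4 CPM in P2 cells, 3.14, 3.75, and 3.38 CPM in E14.5 CD54+CD31- cells, and 20.4, 32.5, and 24.3 CPM at E18.5. *Flt4* (ENSMUSG00000020357, plus strand of chr11:49609263-49652739), the receptor of VEGF-C, had 886, 934, and 953 CPM in CD31+ cells, 6.29, 38.7, and 9.74 CPM in P2 cells, 2.49, 4.06, and 4.24 CPM in E14.5 CD54+CD31- cells, and 19.9, 28.4, and 23.0 CPM at E18.5. Of 7 lymphatic endothelial markers, 3 were higher and 2 lower in CD31+ than in E14.5 CD54+CD31- cells, and *Ccl21a* was listed at 0 in every library. Their sum of 2176 to 2494 CPM in CD31+ cells was mostly *Lyve1* (mean 1925 CPM), which sinusoidal endothelium is also known to carry, and that of 1219 to 1451 CPM in E14.5 CD54+CD31- cells was mostly *Reln* (1025 CPM) and *Prox1* (298 CPM), of which *Prox1* is also known from hepatoblasts. *Pdpn* was at 0.259 and 0.198 CPM in these groups, and the sum in P2 cells was 44.9 to 124 CPM. For each of the 3 kinases, every P2 library lay above every E14.5 CD54+CD31- library. P2 replicate 2 lay above every E18.5 library, while the other P2 libraries lay below them all.

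Per kilobase of exon, *Kdr* ranked 68 of 16617 genes at 227 RPKM, *Flt4* ranked 165 at 112 RPKM, and *Flt1* ranked 319 at 70.2 RPKM. Relative to E14.5 CD54+CD31- cells, *Kdr* was 297-fold higher in CD31+ cells (log2 fold change 8.21, SE 0.76, adjusted p = 4.99e-06 in edgeR), *Flt1* was 276-fold higher (8.11, SE 0.75, adjusted p = 4.70e-06), and *Flt4* was 255-fold higher (SE 0.71 on the log2 scale, adjusted p = 3.71e-06). As means of the 4 groups, *Kdr* made up 50.8% to 55.6% of the summed kinase level per kilobase. *Flt4* made up 26.8% to 30.5% and *Flt1* 16.3% to 18.7%. Single libraries varied more, with *Kdr* at 42.5% to 57.7% in E14.5 CD54+CD31- cells (SD 7.71) and 49.6% to 65.1% at E18.5 (SD 8.30). The SD of the *Kdr* share was 1.07 in P2 cells and 1.24 in CD31+ cells. The sum itself ran from 0.930 RPKM in an E14.5 CD54+CD31- library to 423 RPKM in a CD31+ library.

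The promoters of *Kdr* and *Flt1* are shown because ETS factors, which bind GGAA, are known regulators of endothelial genes. That of *Flt4*, whose level moved with both, is not shown because too few of its upstream bases lay outside annotated exons. Capitals mark GGAA on either strand. The *Kdr* bases are from chr5:75978459-75978705 and the *Flt1* bases from chr5:147726012-147726261.
*Kdr*: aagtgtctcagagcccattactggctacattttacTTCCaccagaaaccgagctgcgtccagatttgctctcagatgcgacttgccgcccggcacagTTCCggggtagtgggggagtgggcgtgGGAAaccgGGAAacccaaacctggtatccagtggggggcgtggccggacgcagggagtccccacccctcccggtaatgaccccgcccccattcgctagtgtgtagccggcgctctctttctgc
*Flt1*: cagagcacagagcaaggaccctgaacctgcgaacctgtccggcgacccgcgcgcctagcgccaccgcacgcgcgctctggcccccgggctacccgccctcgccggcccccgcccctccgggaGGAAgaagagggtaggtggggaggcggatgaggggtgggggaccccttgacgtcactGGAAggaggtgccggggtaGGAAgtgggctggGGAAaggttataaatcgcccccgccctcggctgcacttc
Each printed stretch held 4 copies. GGAA was found in the 300-base windows of all 9 genes, from 1 copy at *Nrp2* to 6 at *Vegfa*. Among the kinases, the windows held 5 copies at *Kdr*, 4 at *Flt1*, and 2 at *Flt4*. It was found in 95.7% of all protein-coding windows, with a mean of 3.49 copies. The longer CCGGAA, whose copies are also copies of GGAA, was found at *Kdr* alone among the 9 and in 18.7% of all windows. A match of letters is not evidence of binding, and no binding was measured.

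In P2 cells the receptor kinases were low and uneven. *Kdr* was 5.22-fold higher in P2 cells than in E14.5 CD54+CD31- cells (log2 fold change 2.38, SE 0.60, adjusted p = 0.00473 in edgeR), *Flt1* 4.98-fold (2.32, SE 0.61, adjusted p = 0.00592), and *Flt4* was higher by a log2 fold change of 2.32 (SE 0.58, adjusted p = 0.00456). These sizes rested on P2 replicate 2. Without that library the folds were 2.39 for *Kdr* (adjusted p = 0.00377), 2.18 for *Flt1* (adjusted p = 0.00290), and 2.22 for *Flt4* (adjusted p = 0.000649), and all 3 calls were kept. Compared with CD31+ cells, P2 cells were 56.9-fold lower in *Kdr* (-5.83, SE 0.68, adjusted p = 2.15e-05), 55.4-fold in *Flt1* (-5.79, SE 0.66, adjusted p = 1.85e-05), and 51.1-fold in *Flt4* (-5.68, SE 0.63, adjusted p = 1.56e-05). Without P2 replicate 2 these folds were 124, 127, and 115.

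Endothelial markers moved with the receptors in P2 cells. Expressed as a percentage of the mean of the CD31+ libraries, the 5 receptor and co-receptor genes had a median of 0.681% in P2 replicate 1, 3.88% in replicate 2, and 1.10% in replicate 3. The 12 endothelial markers, which include *Pecam1*, *Cdh5*, and *Tek*, had medians of 0.712%, 4.37%, and 1.02% in the same libraries. In replicate 2 the 5 genes ran from 3.39% to 4.40% and the markers from 3.72% to 8.20%. In E14.5 CD54+CD31- cells the median of the markers was 0.411%, 0.560%, and 0.510%, and *Kdr*, *Flt1*, and *Flt4* had between 0.174% and 0.460%. The part of endothelial RNA in the P2 values was not tested.

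**Figure D3:**
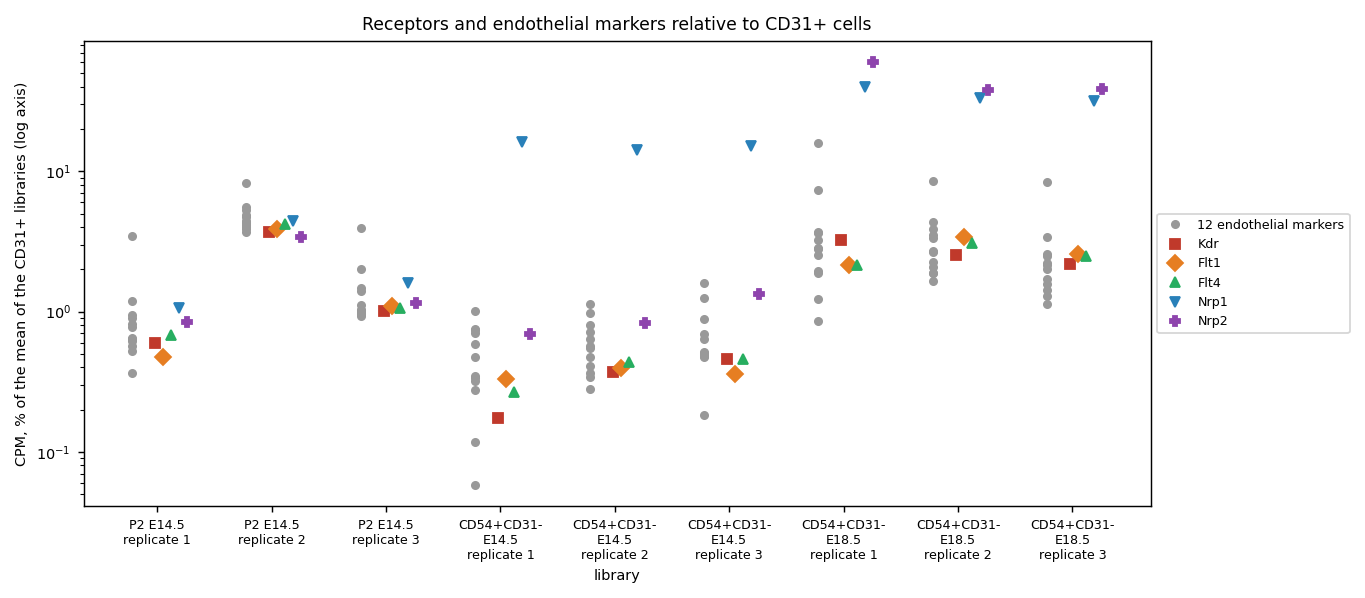
CPM of the 3 receptor kinases, the 2 neuropilins, and the 12 endothelial markers in each library outside the CD31+ group, as a percentage of the mean of the CD31+ libraries (log axis). In P2 libraries the 5 genes lay near the markers, at medians of 0.681%, 3.88%, and 1.10%, whereas *Nrp1* lay at 14.3% to 16.1% in E14.5 CD54+CD31- cells and both neuropilins lay at 31.9% to 60.3% at E18.5.

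In CD54+CD31- cells, the receptor kinases were higher at E18.5 than at E14.5. *Kdr* was 9.07-fold higher (log2 fold change 3.18, SE 0.36, adjusted p = 0.000278 in edgeR). *Flt1* was 8.53-fold higher (3.09, SE 0.19, adjusted p = 3.37e-05), and *Flt4* was 7.52-fold higher (2.91, SE 0.23, adjusted p = 7.18e-05). All 12 endothelial markers were also called higher at E18.5, with a median log2 fold change of 2.17, and summed to 162 to 202 CPM against 40.5 to 61.7 CPM at E14.5. The kinases stood at 2.15% to 3.42% of their CD31+ mean in E18.5 libraries, where the medians of the endothelial markers were 2.83%, 2.70%, and 2.07%. Without E18.5 replicate 1 the log2 fold changes were 2.99, 3.22, and 3.01 for *Kdr*, *Flt1*, and *Flt4*. Whether the source of these transcripts was liver or lung was not tested.

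*Nrp1* (ENSMUSG00000025810, plus strand of chr8:128358604-128503363) encodes a co-receptor of VEGF-A and had another order of groups than the kinases. It had 661, 649, and 617 CPM in CD31+ cells, 103, 91.8, and 97.5 CPM in E14.5 CD54+CD31- cells, 256, 214, and 205 CPM at E18.5, and 6.78, 28.3, and 10.2 CPM in P2 cells. The 4 groups did not overlap, and P2 cells, not CD54+CD31- cells, were lowest. *Nrp1* was 6.55-fold higher in CD31+ than in E14.5 CD54+CD31- cells (log2 fold change 2.71, SE 0.42, adjusted p = 0.000213 in edgeR). P2 cells were 6.54-fold lower than E14.5 CD54+CD31- cells (-2.71, SE 0.42, adjusted p = 0.000193), and 11.5-fold lower without P2 replicate 2. P2 cells were 42.9-fold lower than CD31+ cells (-5.42, SE 0.47, adjusted p = 2.52e-06), and 75.4-fold lower without that library. In E14.5 CD54+CD31- cells *Nrp1* stood at 16.1%, 14.3%, and 15.2% of its CD31+ mean, above each of the 12 endothelial markers, of which the highest reached 1.59%. At E18.5 *Nrp1* was 2.62-fold higher than at E14.5 in CD54+CD31- cells (1.39, SE 0.13, adjusted p = 0.000137), and the part of lung RNA was not tested. *Mir1903* overlaps 80 bases of *Nrp1* exon on the same strand, and the other 8 genes overlap no annotated exon of another gene on either strand.

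*Nrp2* (ENSMUSG00000025969, plus strand of chr1:62703285-62818695) was highest in CD31+ cells, like the kinases, and at E18.5 lay far above P2 cells, like *Nrp1*. It had 362, 369, and 348 CPM in CD31+ cells, 3.01, 12.2, and 4.12 CPM in P2 cells, 2.49, 2.99, and 4.81 CPM in E14.5 CD54+CD31- cells, and 217, 137, and 139 CPM at E18.5. CD31+ cells were highest, E18.5 cells were next, and P2 and E14.5 CD54+CD31- cells overlapped. *Nrp2* was 104-fold higher in CD31+ than in E14.5 CD54+CD31- cells (log2 fold change 6.69, SE 0.53, adjusted p = 1.48e-06 in edgeR) and 56.2-fold lower in P2 than in CD31+ cells (-5.81, SE 0.50, adjusted p = 2.34e-06), or 101-fold lower without P2 replicate 2. Between P2 and E14.5 CD54+CD31- cells it was not called (0.88, 95% interval -0.13 to 1.90, adjusted p = 0.108), but without P2 replicate 1 it was (1.21, adjusted p = 0.0199). At E18.5 *Nrp2* was 54.6-fold higher than at E14.5 (5.77, SE 0.35, adjusted p = 2.96e-05), and *Nrp2* made up 37.2% ± 3.49 (SD, n = 3) of the neuropilin level per kilobase at E18.5 and 2.83% ± 0.998 at E14.5 in CD54+CD31- cells. E18.5 replicate 1 had 1.57 times the *Nrp2* mean of the other libraries of its group, and without it the log2 fold change was 5.48 (adjusted p = 9.47e-08). Stellate and mesenchymal markers summed to 3988 to 4412 CPM at E18.5, against 124 to 244 CPM in E14.5 CD54+CD31- cells. Of these 10 markers, 1 was listed at 0 in every library. The ratio of replicate 1 to the other E18.5 libraries had a median of 1.07 over these markers. That median was 2.06 over the alveolar type 1, 1.93 over the alveolar type 2, and 0.104 over the hepatoblast markers. The part of mesenchymal RNA and that of lung RNA in the neuropilin levels were not tested.

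**Figure D4:**
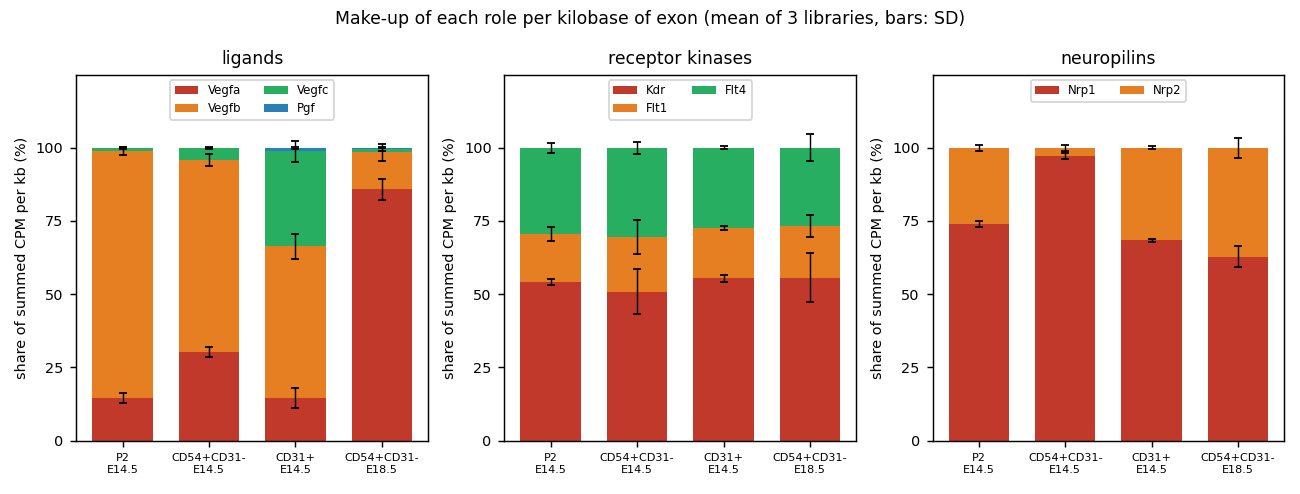
Share of each gene in the summed level of its role (% of CPM per kilobase of exon), as mean and SD of 3 libraries in each group. The group means of *Kdr* lay between 50.8% and 55.6% of the kinases, with SDs from 1.07 to 8.30. In contrast, *Vegfb* was the main ligand at E14.5 and *Vegfa* made up 85.8% at E18.5. A contribution of lung RNA to the E18.5 shares was not tested.

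A further 96 genes of the pathway were listed by role. The part of lung RNA in their E18.5 levels was not tested. The remaining ligand, *Vegfd*, a second ligand of VEGFR3, had a mean of 0.364 CPM in P2 cells, 1.48 CPM in E14.5 CD54+CD31- cells, 0.662 CPM in CD31+ cells, and 7.18 CPM at E18.5. It was called lower in P2 than in E14.5 CD54+CD31- cells (log2 fold change -2.03, adjusted p = 0.000607 in edgeR), lower in CD31+ than in those cells (-1.17, adjusted p = 0.0141), and higher at E18.5 (2.45, adjusted p = 9.23e-05). Of the 9 genes of hypoxia sensing, 1 was higher and 5 were lower in P2 than in E14.5 CD54+CD31- cells, or 66.7% called, near the 70.0% of all tested genes. *Hif3a*, a hypoxia-inducible factor subunit, was the higher one, at 161 against 22.2 CPM (2.84, adjusted p = 9.50e-09), and *Epas1*, which encodes HIF-2α, was lower, at 11.3 against 110 CPM (-3.30, adjusted p = 9.73e-05), as was *Hif1a*, at 69.0 against 149 CPM (-1.13, adjusted p = 4.26e-06). Against CD31+ cells, 2 were higher and 4 lower in P2 cells, or 66.7% called, where 73.7% of all tested genes were. The share was 77.8% both in CD31+ against E14.5 CD54+CD31- cells and with age, where 65.6% and 69.4% of all tested genes were called. In CD31+ cells 5 of these genes were higher than in E14.5 CD54+CD31- cells and 2 were lower, with *Epas1* at 485 CPM (2.13, adjusted p = 0.00160). *Egln3*, an oxygen-sensing prolyl hydroxylase, was higher in CD31+ cells (4.61, adjusted p = 1.59e-06) and at E18.5 (5.85, adjusted p = 1.21e-05), where 5 were higher and 2 lower (median log2 fold change of the list 0.27 in CD31+ over E14.5 CD54+CD31- cells and 0.57 with age).

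Ligand processing and binding genes split by population. In P2 cells, 3 of the 7 were higher and 3 were lower than in E14.5 CD54+CD31- cells, and 1 was higher and 6 were lower than in CD31+ cells. The one higher than in both was *Adamts3*, the protease that activates VEGF-C, with 49.2 CPM in P2 cells, 8.60 CPM in E14.5 CD54+CD31- cells, and 5.88 CPM in CD31+ cells (2.50, adjusted p = 1.74e-08, and 3.05, adjusted p = 3.07e-08). *Ccbe1*, its cofactor, was lower in P2 than in E14.5 CD54+CD31- cells (-2.29, adjusted p = 0.000240). *Mmrn2*, an endothelial matrix protein, stood at 422 CPM in CD31+ cells and 1.49 CPM in E14.5 CD54+CD31- cells (8.13, adjusted p = 6.89e-06), and 5 of the 7 were higher in CD31+ cells and 1 was lower (median 3.17). At E18.5 all 7 were higher than at E14.5 (median 1.98), *Adamts1* by 13.7-fold (3.77, adjusted p = 1.32e-05). The shares of the list called were 85.7%, 100%, 85.7%, and 100% in the order above, against 70.0%, 73.7%, 65.6%, and 69.4% of all tested genes.

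The list of semaphorins and plexins, the other partners of neuropilins, held 13 genes, among them *Gipc1*, which is neither. At E14.5, 12 of the 13 were tested. In P2 cells 1 was higher and 6 were lower than in E14.5 CD54+CD31- cells, and none was higher and 9 were lower than in CD31+ cells. CD31+ cells had 8 higher and 2 lower than E14.5 CD54+CD31- cells, with *Plxnd1*, an endothelial semaphorin receptor, at 1490 against 13.5 CPM (6.78, adjusted p = 9.17e-06). The list's median was 1.16 in that comparison. In E18.5 libraries, 11 of 13 were higher and 1 was lower than at E14.5 (median 3.78). *Sema3e* differed most of the list, with a mean of 0.174 CPM at E14.5 and 165 CPM at E18.5 (10.04, SE 0.43, adjusted p = 1.55e-05). *Sema3c* had 0.692 and 58.5 CPM (6.62, adjusted p = 3.35e-05). Without E18.5 replicate 1 the count was 10 higher and 2 lower. With all libraries, the shares of the list called were 58.3%, 75%, 83.3%, and 92.3% in the order above. Over all tested genes they were 70.0%, 73.7%, 65.6%, and 69.4%.

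Of 10 receptor partners, 7 were higher and 2 lower in CD31+ than in E14.5 CD54+CD31- cells (median 2.23). In P2 cells 2 were higher and 8 lower than in CD31+ cells (median -3.02), and 8 were higher and 1 lower at E18.5 (median 1.01). The shares called were 90%, 100%, and 90%, against 65.6%, 73.7%, and 69.4% of all tested genes. *Ptprb*, an endothelial phosphatase that acts on VEGFR2, had 777 CPM in CD31+ cells, 13.7 CPM in P2 cells, and 2.66 CPM in E14.5 CD54+CD31- cells, an order like that of *Kdr*. *Itgav*, an integrin chain, was lower in P2 than in E14.5 CD54+CD31- cells, at 8.13 against 95.9 CPM (-3.58, adjusted p = 2.35e-09), and was at 136 CPM at E18.5. Between P2 and E14.5 CD54+CD31- cells 2 were higher and 2 lower, or 40% called, against 70.0% of all tested genes. Without P2 replicate 2 these counts were 2 and 4, or 60% against 65.7%.

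Among 43 genes of intracellular signaling, 42 were tested. In P2 cells 10 were higher and 18 lower than in E14.5 CD54+CD31- cells, and 10 higher and 28 lower than in CD31+ cells. The share called was 66.7% in the first comparison, near the 70.0% of all tested genes, and 90.5% in the second, against 73.7%. *Sphk1*, which makes sphingosine-1-phosphate, was the gene of this list that was highest in P2 cells relative to both, at 69.4 CPM against 5.42 and 3.93 CPM (3.67, adjusted p = 1.80e-06, and 4.13, adjusted p = 8.74e-07). *Src* and *Yes1*, kinases that act downstream of VEGFR2, were lower in P2 than in E14.5 CD54+CD31- cells, at 1.59 against 27.3 CPM (-4.12, adjusted p = 1.10e-07) and 2.43 against 33.3 CPM (-3.79, adjusted p = 6.09e-08). *Nos3*, the endothelial nitric oxide synthase, had 16.7 CPM in CD31+ cells and 0.134 CPM in E14.5 CD54+CD31- cells (6.96, adjusted p = 3.35e-06). CD31+ cells had 24 higher and 13 lower than E14.5 CD54+CD31- cells (median 0.41), or 88.1% called, against 65.6% of all tested genes. E18.5 cells had 20 higher and 10 lower than E14.5 cells (median 0.37), or 71.4%, near the 69.4% of all tested genes. *Map2k2* was lower at E18.5 (-1.12, adjusted p = 0.000211).

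Of 13 genes known to be induced by VEGF, 10 were tested at E14.5, and *Esm1* and *Angpt2* were listed at 0 in every library, CD31+ cells included. Each of the 10 was lower in P2 cells than in CD31+ cells, and 8 were higher and 1 was lower in CD31+ than in E14.5 CD54+CD31- cells (medians -3.70 and 2.20). *Dll4*, a Notch ligand, had 152 CPM in CD31+ cells, 2.97 CPM in P2 cells, and 0.863 CPM in E14.5 CD54+CD31- cells. *Apln*, the ligand of the apelin receptor, had 1091 pooled counts in CD31+ cells against 2 in E14.5 CD54+CD31- cells, a ratio of 336 (95% interval of counting error 92.7 to 2775). Between P2 and E14.5 CD54+CD31- cells 4 were higher and 4 lower, also without P2 replicate 2. *Dll4* was among the higher ones (1.76, adjusted p = 0.0201), with 1.26, 6.22, and 1.42 CPM in P2 replicates 1, 2, and 3. The immediate early gene *Egr1* was lower in P2 cells, at 5.02 against 90.3 CPM (-4.19, adjusted p = 1.30e-06). At E18.5, 9 of 11 were higher and 1 was lower (median 2.45). *Nr4a1*, a nuclear receptor of the immediate early kind, had 1.61 CPM at E14.5 and 93.6 CPM at E18.5 (6.04, adjusted p = 1.86e-05). The shares of the list called were 100%, 90%, 80%, and 90.9% in the order above, against 73.7%, 65.6%, 70.0%, and 69.4% of all tested genes.

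Over all 96 pathway genes, 21 were higher and 39 lower of 91 tested in P2 against E14.5 CD54+CD31- cells (median log2 fold change -0.26), so that 65.9% were called, against 70.0% of all tested genes. Against CD31+ cells the counts were 15 higher and 65 lower (median -1.62), or 87.9% against 73.7% of all tested genes. CD31+ cells had 57 higher and 22 lower than E14.5 CD54+CD31- cells (median 0.89), or 86.8% against 65.6%. At E18.5, 61 of 93 were higher and 15 lower (median 1.11), or 81.7% against 69.4%. With the authors' library factors the age split of the pathway genes was 67 higher and 7 lower.

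**Figure D5:**
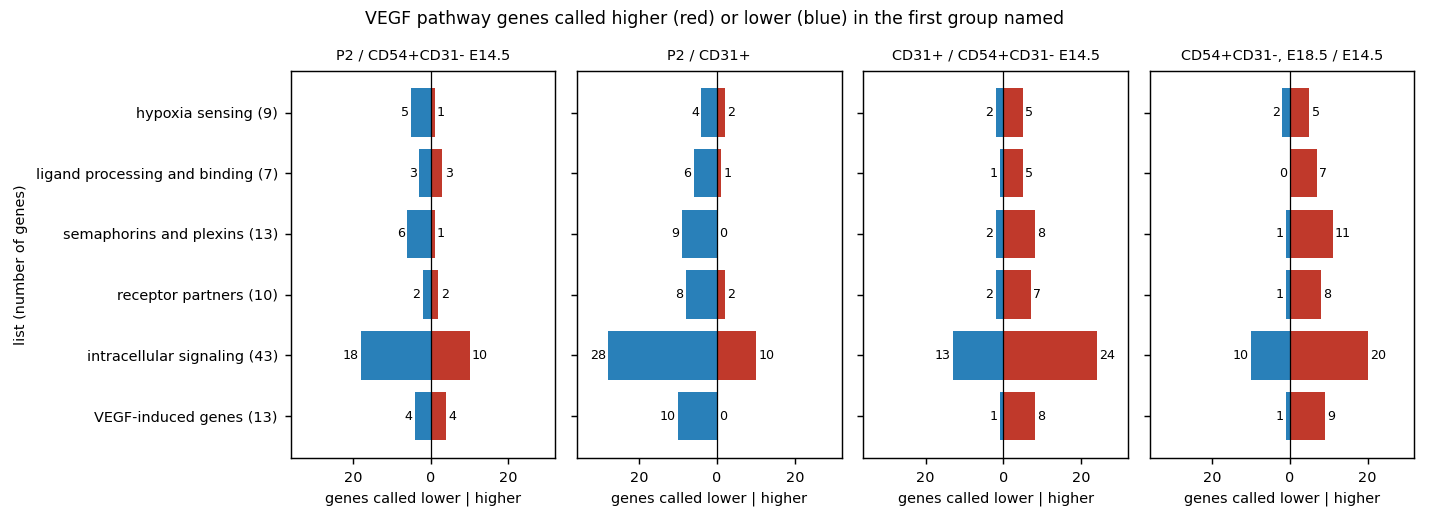
Number of genes called higher (red, to the right) or lower (blue, to the left) in the first group named, for 6 lists of VEGF pathway genes in 4 comparisons (edgeR, adjusted p below 0.05). The bars lean to lower in P2 against CD31+ cells, as in 28 of the signaling genes, and to higher at E18.5, as in 11 of the 13 genes of the semaphorin and plexin list, which includes *Gipc1*.

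The genes whose levels were most like a member's over the 12 libraries were named by Pearson's correlation of log2(CPM + 1), as a description in which the groups set most of the spread. *Kdr*, *Flt1*, and *Flt4* were correlated with each other at 0.9936 to 0.9984, and *Tek*, the endothelial angiopoietin receptor, was among the 3 closest genes to each of them. *Cd93* was closest to *Kdr* (0.9974) and *Fabp4* to *Flt1* (0.9986) and *Flt4* (0.9987). *Vegfa* was most like *Shtn1* (0.9955), *Clic5* (0.9952), and *Eln* (0.9945), of which *Clic5* belongs to the alveolar type 1 list. *Vegfc* was most like *P2ry6* (0.9944) and *Pgf* like *Zfp664* (0.9913). *Nrp1* was most like *Ckap4* (0.9989) and *Nrp2* like *Arhgap31* (0.9995). The correlation between *Vegfa* and *Kdr*, a ligand and its receptor, was -0.24 over the 12 libraries.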

How the data were processed

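Single-read RNA-seq was made from RNA of sorted FL cells with a stranded total RNA kit after enzymatic removal of ribosomal RNA. Per the labels, reads were trimmed with cutadapt 1.11, aligned to GRCm38 with STAR 2.5.0a, and counted with featureCounts 1.4.6-p3. The annotation release, the strand setting, and the treatment of reads with several alignments are not given in the sources used here, and gene counts do not separate splice forms. The deposited raw counts, whole numbers per gene, served for every result. The authors also deposited a score, the count multiplied by 1 DESeq2 factor per library and rounded, which was used only to read that factor.

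Counts were normalized by TMM, filtered with filterByExpr, and tested with the quasi-likelihood test of edgeR 4.0.16 in R 4.3.3, with Benjamini-Hochberg adjustment over all genes tested (adjusted p below 0.05). One fit held the 9 E14.5 libraries and another the 6 CD54+CD31- libraries of both ages, so folds with age can differ from ratios of the printed CPM means, which were scaled over 12 libraries. SEs were obtained from each log2 fold change and its F value. Counting intervals of ratios are exact and cover counting error only. Alternatives were DESeq2 1.42.0, DESeq2's size factors, the authors' factors, other filters, omission of genes that took over 1% of any library, other sets of libraries, each library left out, and the replicate number as a block. The tests were checked on simulated data. Of 38127 gene identifiers, 37932 were found in GENCODE vM21, which gave coordinates and exon lengths, and the promoters of all 9 genes were found in RefSeq.

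The 9 genes, the pathway lists, and the marker lists were chosen with earlier results of these data known. From each pathway list, genes were named by the 2 largest changes in each direction among those called without overlap between groups, not all of which are printed, and, from all genes tested, the 3 most like each member were eligible to be named, of which some are not reported here. *Alas2*, *Slc4a1*, *Hbb-bs*, *Hba-a1*, *Esm1*, *Angpt2*, *Mrc1*, the lymphatic markers, and the genes repeated in a further comparison were named after their values were seen. No replicate was a duplicate of another: chi-square divided by its degrees of freedom was 38.6 or more between any replicates of a group. Across genes, deviations of same-numbered libraries from their group means were correlated at 0.334, 0.26, and 0.122 between CD31+ and E14.5 CD54+CD31- cells. Whether equal numbers mark the same litter is not given by the labels, so a pairing is not known. In the other comparisons at least 1 of the 3 correlations was below 0.1.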

Additional observations from a re-analysis of the deposited data

How the results depend on the processing

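With 3 libraries per group, the spread between libraries and not depth limited the precision, except for *Pgf*. The 36 log2 fold changes of the 9 genes were recomputed under the alternatives, which gave 607 values, of which 606 kept the main call. The exception was *Nrp2* in P2 against E14.5 CD54+CD31- cells, which was called without P2 replicate 1. Its log2 fold change ran from 0.0391 to 1.21 as single libraries were left out, with adjusted p from 0.0199 to 0.896. *Vegfb* in P2 against CD31+ cells ran from -0.24 with the authors' factors to 0.26, and *Pgf* in P2 against E14.5 CD54+CD31- cells ran from -0.89 to 0.55. *Vegfc* with age was not called in any alternative (-0.68 to -0.26, adjusted p from 0.0642 to 0.403). *Pgf* gave no value in some comparisons when at least 10 counts were required in every library. With the authors' factors the median change over the tested genes shifted on the log2 scale by -0.26, -0.37, 0.11, and 0.23 in the 4 comparisons, in the order P2 against CD54+CD31-, P2 against CD31+, CD31+ against CD54+CD31-, and E18.5 against E14.5. The cause was not tested.

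With the replicate number as a block, the counts of genes called were 10910, 11460, 10326, and 10329 in the same order. The block changed no call of the 9 genes. The main fits held no block, and the labels do not say whether equal numbers mark the same litter. The blocked log2 fold changes in CD31+ against E14.5 CD54+CD31- cells were 8.34 for *Kdr*, 8.17 for *Flt1*, and 8.08 for *Flt4*.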
